A study of Macaca mulatta with 8 samples.

Results

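Rab GTPases, SNARE proteins and their partners move, dock and fuse the vesicles of a cell, and their transcripts are described here in rhesus macaque oocytes at metaphase II, the stage at which an egg awaits fertilization. Members were all probe sets with a single platform gene symbol that begins with RAB and a digit, VAMP, STX and a digit, STXBP, SYT and a digit, EXOC, NAPA or NAPB, or that is NSF, SNAP23, SNAP25, SNAP29 or SNAP47. The rule found 167 probe sets for 87 genes among the 52766 non-control probe sets of the array, and it used no measured value. NSF, NAPB, SNAP23, SNAP25, SNAP29, RAB11A and VAMP3 had no probe set under this rule and were not analysed here. Neither were 3 probe sets shared by RAB1A and a second gene, nor the probe set of SNAP91, a clathrin adaptor gene.

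Oocytes matured in vitro (4 arrays) were compared with oocytes matured in vivo (4 arrays). Each array carried RNA of a pool of 4 oocytes, amplified in 2 rounds and read on an Affymetrix array in a single colour. The arrays are labelled as biological replicates, with no animal, age, hormone treatment or culture medium given, so a p-value reflects only how far these pools varied. In pooled RNA, fewer cells of a type and less RNA per cell cannot be told apart.

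A Rab GTPase marks a membrane when it carries GTP, loaded by an exchange factor (GEF) and hydrolysed with the help of a GTPase-activating protein (GAP). Tethers such as the exocyst then hold the vesicle, and SNAREs on vesicle (VAMPs) and target (syntaxins and the SNAP25 family) zip together to fuse the membranes, guided by Munc18-type syntaxin-binding proteins. NSF and its adaptor NAPA take spent SNARE complexes apart, and synaptotagmins couple fusion to calcium. In eggs this machinery releases the cortical granules after fertilization, which alters the zona pellucida and blocks further sperm.

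Levels are given as linear MAS5 signals, and the background of an array is the 95th percentile of its controls for transcripts that were not spiked in (19.6 to 23.8 in vitro and 15.7 to 27.01 in vivo). Of the 167 member probe sets, 92 lay above background on all 8 arrays, 64 on some and 11 on none. Between 122 and 131 of them lay above background on an in vitro array and between 116 and 135 on an in vivo array. All 10 oocyte markers on a list of 10, among them ZP3, MOS and BMP15, were above background on all 8 arrays, with a summed signal of 27754 to 36819 in vitro and 32225 to 39735 in vivo. Of 14 measured cumulus cell markers, 11 were above background on all 8 arrays and their sum was 22718 to 31829 in vitro and 24312 to 26626 in vivo, while 3 of their 30 tested probe sets passed the test described below, all higher in vitro. Blood markers summed to 67.8 to 154 in vitro and 179 to 241 in vivo over 6 genes, and stromal markers to 486 to 1133 in vitro and 276 to 495 in vivo over 7 genes. The blood sums did not overlap between the groups, and none of the blood genes lay above background on all 8 arrays. The part of these other cell types in the results below was not tested.

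No member passed the test of oocytes matured in vitro against oocytes matured in vivo. Probe sets whose mean signal lay above the median of the array were tested, 127 of the 167 members and 74 of the 87 genes, and log2 fold changes are in vitro minus in vivo on the log2(signal + 8.2) scale. At a limma adjusted p of 0.05, 0 of 127 members were called, where 0.148 percent of all 26378 tested probe sets were called (0.0986 percent higher and 0.0493 percent lower in vitro), and the smallest adjusted p of a member was 0.127. At an unadjusted p under 0.05 there were 17 members (13.4 percent), 7 higher and 10 lower in vitro, beside 10.3 percent of all tested probe sets (4.66 percent higher and 5.61 percent lower). Counted once per gene at its brightest tested probe set, the shares were 12.2 percent of 74 member genes and 12 percent of 9560 named genes. The groups did not overlap at 12 members, 6 higher and 6 lower, which is 9.45 percent beside 6.33 percent of all tested probe sets (3.18 percent higher and 3.15 percent lower). A difference over 2-fold was seen at 3 members (STX12, RAB29 and RAB3IP), or 2.36 percent, beside 3.23 percent of all tested probe sets. Those of RAB29 and STX12 were above background on 2 of 4 in vivo arrays, and that of RAB3IP on 3 of 4 in vitro arrays, so these folds rest in part on signals near background. The members' shares lay near those of the whole array. The 95 percent confidence interval lay wholly within a 2-fold difference for 70 of the 127 members, and the median half-width of the interval was 0.64 on the log2 scale.

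**Figure D1:**
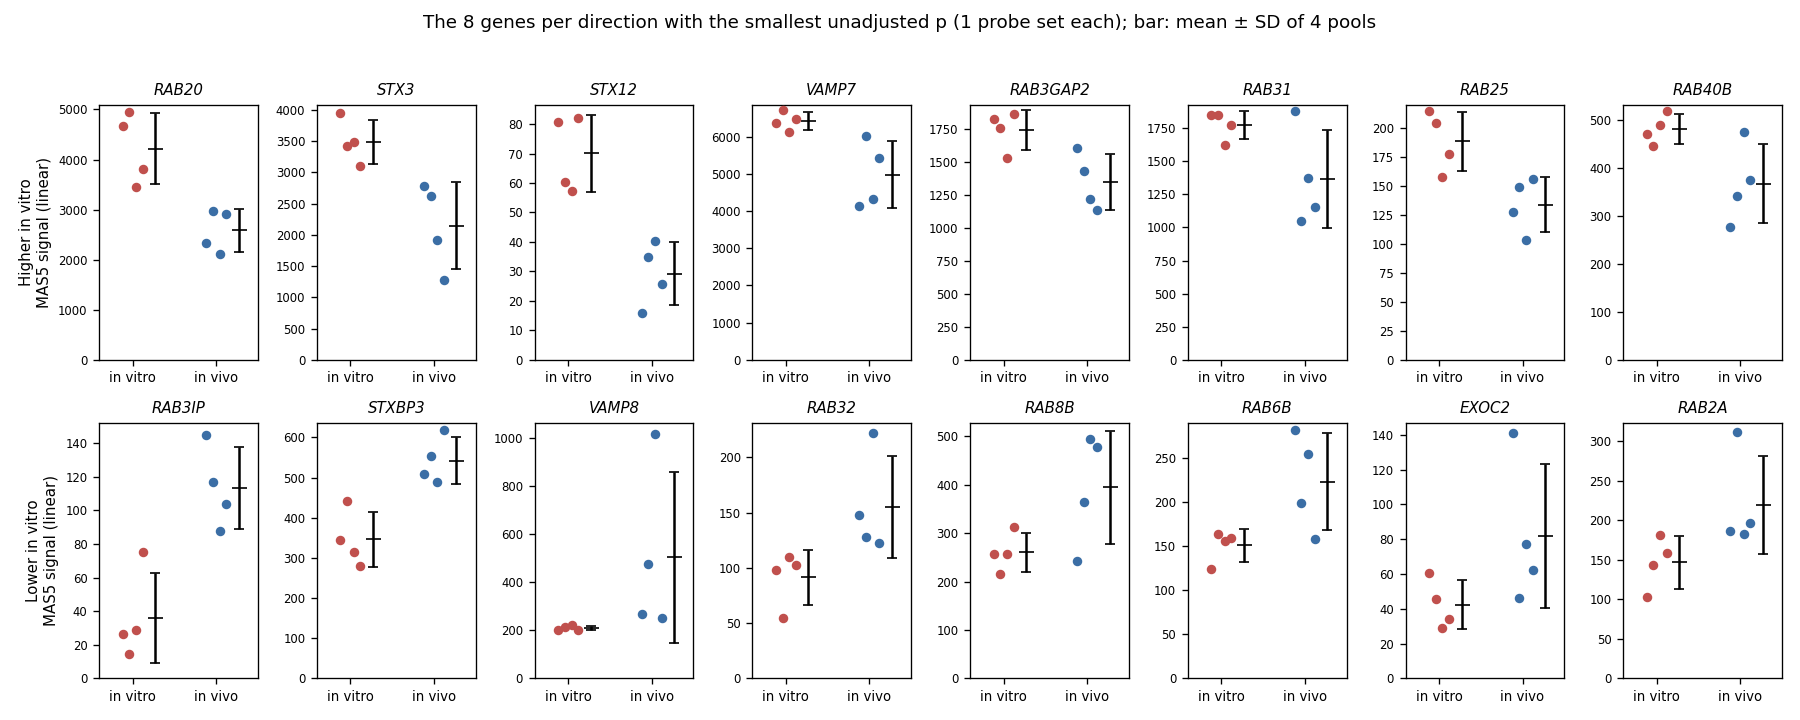
Signals of each pool (points) with the mean and SD of 4 pools (bars) for the 8 genes per direction with the smallest unadjusted p, 1 probe set each, on linear axes that start at 0. The in vitro points of RAB20, STX3, STX12, VAMP7 and RAB25 all lie above the in vivo points, and those of RAB3IP, STXBP3, VAMP8, RAB32 and RAB2A all lie below, while none of the 16 passed the adjusted threshold.

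Among genes of Rab activation, RAB3IP had the smallest p of all members. It encodes Rabin8, an exchange factor that loads RAB8 with GTP on vesicles bound for the cell surface. Its tested probe set (MmugDNA.21421.1.S1_at) had signals of 26.3, 14.6, 28.6 and 75.3 in vitro, against 145, 117, 87.6 and 104 in vivo. All in vitro pools lay below all in vivo pools, and in vitro replicate 4 was the nearest to them. The log2 fold change was -1.60 ± 0.37 (SE, limma adjusted p = 0.127). Without in vitro replicate 4 it was -1.96 at an adjusted p of 0.0359, and over the other alternatives the adjusted p ran up to 0.375. The other RAB3IP probe set fell below the signal filter, at 5.0 to 22.8 in vitro and 13.6 to 26.9 in vivo, above background on 1 in vitro and 2 in vivo arrays.

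The subunits of the RAB3 GAP complex, which inactivates RAB3 and also serves as an exchange factor for RAB18, were bright at their leading probe sets. RAB3GAP1, the catalytic subunit, had 3848, 4416, 5952 and 4289 in vitro and 2770, 5153, 2618 and 3849 in vivo. These ranges overlapped, and the log2 fold change was 0.40 (limma adjusted p = 0.565), with 0.20 at its dimmer probe set. RAB3GAP2, the noncatalytic subunit, had 1828, 1755, 1530 and 1867 in vitro, against 1606, 1435, 1222 and 1139 in vivo. In vivo replicate 1 lay within the in vitro range, and the log2 fold change was 0.38 ± 0.17 (SE, limma adjusted p = 0.471). A second bright RAB3GAP2 probe set did not overlap, at 1126 to 1218 in vitro and 855 to 1088 in vivo, with a log2 fold change of 0.29, and the other 2 tested ones had -0.17 and 0.13. RAB11FIP2 and RAB11FIP3 encode effectors that link RAB11 vesicles to motors and to the division plane. RAB11FIP3 was at 125 ± 55.1 in vitro and 147 ± 18.0 in vivo (SD, n = 4 each), and RAB11FIP2 was above background on 1 in vitro and 2 in vivo arrays at its brighter probe set.

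Rabs of the endoplasmic reticulum and Golgi had small differences. Of 19 tested probe sets for 9 genes, 13 had a negative log2 fold change, beside 49.5 percent of all tested probe sets. The median was -0.17, beside 0.0042 over all tested probe sets. RAB6A, which acts in transport at the Golgi, differed little at its brightest probe set. This had 945, 760, 814 and 888 in vitro and 837, 886, 887 and 902 in vivo. The log2 fold change was -0.05 with a 95 percent interval of -0.40 to 0.31. The dimmer tested RAB6A probe sets had -0.29 and -0.20, so all 3 were negative. The paralogue RAB6B was also lower in vitro at each of 3 tested probe sets, by log2 fold changes of -0.28, -0.52 and -0.58. At the probe set with the smallest p, RAB6B had 124, 165, 156 and 160 in vitro, against 282, 199, 255 and 159 in vivo, with in vivo replicate 4 inside the in vitro range (limma adjusted p = 0.468). The difference between RAB6A and RAB6B was not tested.

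RAB2A, a Rab of transport between the endoplasmic reticulum and the Golgi, gave opposite signs at its probe sets. The brightest had 1131, 1073, 1226 and 1086 in vitro and 907, 1112, 647 and 1145 in vivo, a log2 fold change of 0.28, and the next brightest had 0.25. A dimmer probe set had 103, 144, 181 and 158 in vitro, against 187, 312, 182 and 196 in vivo. The groups at this dimmer probe set did not overlap, although in vitro replicate 3 and in vivo replicate 3 lay close together, and the log2 fold change was -0.55 ± 0.25 (SE, limma adjusted p = 0.473), while the dimmest had -0.18. RAB1A, which acts from the endoplasmic reticulum to the Golgi, had -0.09 at 606 ± 172 in vitro and 637 ± 132 in vivo (SD, n = 4 each), and its dimmer probe sets had -0.36 and 0.38. At the one with -0.36, in vivo replicate 3 had 404 and the other in vivo pools 142 to 172. At the one with 0.38, in vivo replicate 4 had 12.9, below background, and the other in vivo pools 125 to 203. RAB34, also placed at the Golgi, had 0.15, and RAB30 had -0.43 and -0.01 at its tested probe sets. RAB1B, RAB33B and RAB39A had 0.07, -0.17 and 0.04. RAB33A and RAB41 were too dim to be tested.

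Among early endosome Rabs, RAB5C, which drives fusion of early endosomes, differed little and had 1435, 1394, 1215 and 1630 in vitro and 1584, 1515, 1321 and 1466 in vivo. Its 3 probe sets had log2 fold changes of -0.06, -0.04 and 0.02, and their 95 percent intervals together ran from -0.47 to 0.47. RAB5A had 91.2, 59.1, 80.6 and 105 in vitro, against 121, 111, 111 and 120 in vivo. The RAB5A groups did not overlap, and the log2 fold change was -0.45 (limma adjusted p = 0.558). RAB31, which acts between the trans-Golgi network and endosomes, had 1853, 1850, 1625 and 1774 in vitro, against 1881, 1050, 1374 and 1152 in vivo. In vivo replicate 1 was the highest of all 8 pools, the other 3 in vivo pools lay below every in vitro pool, and the log2 fold change was 0.41 (limma adjusted p = 0.486). The other RAB31 probe sets had -0.20 and -0.37.

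Recycling Rabs return endocytosed membrane to the cell surface. RAB4A, for rapid recycling, had 1402, 1653, 1578 and 1507 in vitro and 1612, 1903, 1307 and 1818 in vivo, a log2 fold change of -0.10 with an interval of -0.47 to 0.27, and its other probe sets had -0.19 and 0.02. RAB35, another Rab of rapid recycling, had 0.08 at 154 ± 7.76 in vitro and 146 ± 17.9 in vivo (SD, n = 4 each), and its other 3 tested probe sets had 0.11, -0.18 and -0.31. RAB25, a relative of RAB11 found mainly in epithelia, had 215, 204, 158 and 178 in vitro, against 128, 149, 104 and 156 in vivo. The RAB25 groups did not overlap, by a narrow margin, and the log2 fold change was 0.48 ± 0.22 (SE, limma adjusted p = 0.488). RAB11B was at 27.05 ± 13.2 in vitro and 36.75 ± 41.6 in vivo, above background on 2 in vitro and 1 in vivo arrays. All 9 tested probe sets of recycling Rabs, for 4 genes, had a larger log2 spread in the in vivo pools than in the in vitro pools. Of these 9, RAB35 had 4 and RAB4A had 3. At a RAB35 probe set the SDs were close, at 0.32 in vitro and 0.34 in vivo. RAB11B had 98.7 in in vivo replicate 1 and 12.1 to 23.3 in the other in vivo pools. The share with a larger spread in vivo was 66.4 percent over all tested probe sets and 62.7 percent over all Rab GTPases. Among the other Rab groups it ran from 42.9 percent for early endosome Rabs to 75 percent for late endosome Rabs. RAB17, an epithelial Rab, was too dim to be tested.

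RAB7A directs late endosomes to lysosomes and had 1961, 1455, 1721 and 1996 in vitro and 1665, 2037, 2031 and 1479 in vivo. The groups covered nearly the same range, with log2 fold changes of -0.01 and -0.14 at its 2 probe sets. RAB29, a Rab of the trans-Golgi network that recruits the kinase LRRK2, had log2 fold changes of 0.40, 0.12 and 1.003. The largest of these came from a dim probe set at 39.1 ± 16.4 in vitro and 16.7 ± 12.6 in vivo (SD, n = 4 each; limma adjusted p = 0.521), above background on 3 in vitro and 2 in vivo arrays. RAB32, which acts in the traffic of melanosomes and other lysosome-related organelles, had 98.4, 54.6, 110 and 103 in vitro, against 148, 128, 222 and 122 in vivo. All in vitro pools were lower, in vivo replicate 3 was the highest, and the log2 fold change was -0.72 ± 0.28 (SE, limma adjusted p = 0.391). RAB38, a close relative of RAB32, was at 29.5 ± 5.85 in vitro and 22.8 ± 17.3 in vivo. RAB9B, which acts between late endosomes and the Golgi, had -0.05.

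RAB20 was the bright Rab with the clearest separation. It takes part in the maturation of phagosomes and endosomes. Its bright probe set had 4663, 4951, 3451 and 3811 in vitro, against 2325, 2975, 2119 and 2914 in vivo. The lowest in vitro pool lay above the highest in vivo pool, the log2 fold change was 0.71 ± 0.18 (SE), a 1.63-fold difference, and the limma adjusted p of 0.193 did not pass. Over the alternatives its log2 fold change ran from 0.62 to 0.80 and its adjusted p from 0.0747 to 0.483. The other RAB20 probe set was near background, at 27.4 ± 8.78 in vitro and 32.4 ± 14.7 in vivo, with -0.16. RAB40B, part of a ubiquitin ligase, had 471, 446, 490 and 519 in vitro, against 278, 341, 475 and 375 in vivo, with in vivo replicate 3 inside the in vitro range (log2 fold change 0.41, limma adjusted p = 0.516). RAB40C had -0.55 and -0.07, RAB23, a regulator of Hedgehog signalling, had -0.31 and 0.58, RAB24 had 0.04 and -0.51, and RAB42 had -0.27.

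**Figure D2:**
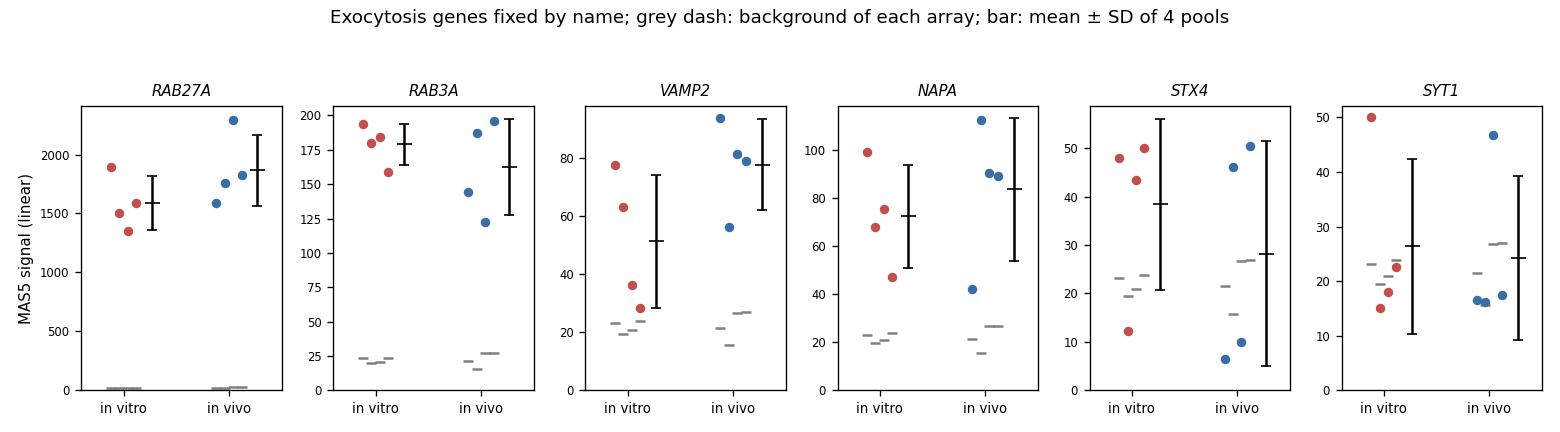
Signals of each pool (points), the mean and SD of 4 pools (bars) and the background of each array (grey dashes) for RAB27A, RAB3A, VAMP2, NAPA, STX4 and SYT1, on linear axes that start at 0. The in vitro and in vivo points overlap in every panel, and some points of STX4 and SYT1 lie below the background dashes.

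Secretory Rabs bring granules to the cell surface, and in mouse oocytes RAB27A and RAB3A have been tied to the positioning and release of cortical granules. RAB27A had 1895, 1505, 1352 and 1592 in vitro and 1590, 1762, 2296 and 1825 in vivo. The ranges overlapped, and the log2 fold change was -0.23 with a 95 percent interval of -0.61 to 0.15. A second tested RAB27A probe set had 0.24, at 296 ± 53.8 in vitro and 253 ± 64.9 in vivo (SD, n = 4 each). RAB3A had 194, 180, 184 and 159 in vitro and 145, 187, 123 and 196 in vivo, a log2 fold change of 0.15. The in vitro pools of RAB3A lay inside the in vivo range. RAB3B, a close relative, had -0.24 and -0.20, and RAB3D was at 25.2 ± 17.5 in vitro and 28.85 ± 13.9 in vivo, while RAB37 had a log2 fold change of -0.53. RAB10, which carries vesicles to the plasma membrane, had 56.5, 147, 54.7 and 67.5 in vitro and 53.2, 55.6, 43.0 and 56.6 in vivo, and in vitro replicate 2 stood above the rest. RAB27B and RAB26 were too dim to be tested.

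RAB8B, which acts in traffic to the cell surface, had 6 tested probe sets of both signs. The brightest had 798, 636, 736 and 820 in vitro, against 528, 656, 477 and 664 in vivo, a log2 fold change of 0.37 (limma adjusted p = 0.532). The probe set with the smallest p had 258, 216, 256 and 314 in vitro, against 243, 364, 495 and 479 in vivo, a log2 fold change of -0.54 (limma adjusted p = 0.464). The other 4 had -0.25, 0.17, -0.17 and -0.37, so no single direction describes this gene. Of 32 member genes with more than 1 tested probe set, 13 had probe sets of both signs, and 0 of these 13 had a value past 0.5 on the log2 scale in both directions.

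**Figure D3:**
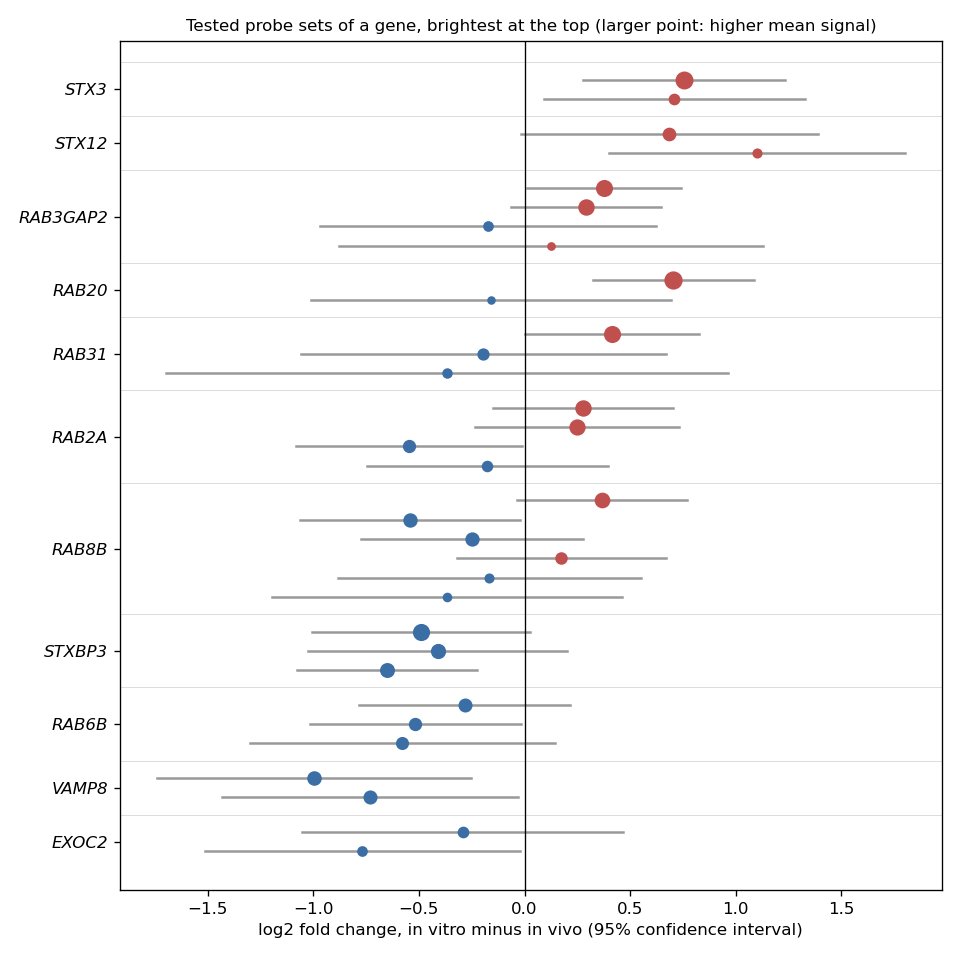
Log2 fold change, in vitro minus in vivo, with its 95 percent confidence interval for each tested probe set of 11 genes, brightest at the top within a gene and larger points for a higher mean signal. STX3, STX12, STXBP3, RAB6B, VAMP8 and EXOC2 keep 1 sign at all their probe sets, while RAB20, RAB31, RAB2A, RAB8B and RAB3GAP2 have both.

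Vesicle SNAREs were mostly lower in vitro in value, with 8 of 9 tested probe sets, for 6 genes, below 0. Of these 9, VAMP4 had 3 and VAMP8 had 2. The median log2 fold change was -0.41, and among all tested probe sets 49.5 percent were below 0. None of the 9 passed the adjusted threshold. VAMP8, which fuses late endosomes and secretory granules, had 202, 213, 220 and 201 in vitro, against 268, 475, 1015 and 250 in vivo. The in vitro pools lay within a narrow band below all in vivo pools, and in vivo replicate 3 was far above the others. The log2 fold change was -0.997 ± 0.35 (SE, limma adjusted p = 0.344), and -0.58 without in vivo replicate 3. The other VAMP8 probe set showed the same high pool, with 164, 186, 206 and 204 in vitro, against 267, 327, 691 and 170 in vivo. The summed cumulus markers were lowest of the in vivo group in replicate 3, at 24312 against 26149 to 26626 in the other in vivo pools. The summed stromal markers were highest of that group there, at 495 against 276 to 426. Single cumulus markers went either way. In that pool PTX3 had 323, against 1.3 to 34.7 in the other in vivo pools, and TNFAIP6 had 377, against 556 to 646. The part of other cells in the VAMP8 values was not tested.

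VAMP7 was the vesicle SNARE with a positive difference. It acts in the fusion of late endosomes and lysosomes with other membranes, the plasma membrane included. It had 6388, 6735, 6144 and 6489 in vitro, against 4145, 6023, 4324 and 5444 in vivo. The groups did not overlap, and the log2 fold change was 0.39 ± 0.16 (SE, limma adjusted p = 0.415). VAMP2, the synaptobrevin of regulated exocytosis, had 77.6, 63.1, 36.4 and 28.5 in vitro, against 94.0, 56.4, 81.6 and 79.2 in vivo, a log2 fold change of -0.59 (limma adjusted p = 0.562). VAMP1, its relative, had -0.999 at a low signal of 14.85 ± 7.20 in vitro and 39.1 ± 17.1 in vivo, and lies outside the rule for named genes. VAMP4, a SNARE of the trans-Golgi network, had -0.41, -0.31 and -0.35. The probe sets with -0.41 and -0.35 have identifiers that share a stem (MmugDNA.33384.1.S1), so they are not independent readings. At the brightest VAMP4 probe set in vivo replicate 1 reached 168 where the other in vivo pools had 42.1 to 73.1. VAMP5 had -0.38.

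Of 14 tested syntaxin probe sets, for 10 genes, 10 were above 0 and the median was 0.28. Among all tested probe sets 49.5 percent were below 0. STX3, STX12 and STX16 gave several of the positive syntaxin probe sets each, while STX2, STX5, STX10 and STX18 were negative. None of the syntaxin probe sets passed. STX3, a plasma membrane syntaxin of polarized and granule exocytosis, had 3948, 3423, 3485 and 3100 in vitro, against 2785, 2629, 1914 and 1269 in vivo. All in vitro pools lay above all in vivo pools, the in vivo pools differed by more than 2-fold among themselves, and the log2 fold change was 0.76 ± 0.22 (SE, limma adjusted p = 0.263). A dimmer STX3 probe set had 91.8, 111, 118 and 128 in vitro, against 110, 67.9, 56.7 and 40.9 in vivo, a log2 fold change of 0.71 (limma adjusted p = 0.413). At both probe sets in vivo replicate 4 was the lowest pool, and without it the log2 fold change of the bright one was 0.53.

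STX12, a syntaxin of recycling endosomes, had 80.7, 60.5, 57.2 and 82.0 in vitro, against 15.8, 34.9, 40.3 and 25.7 in vivo. The groups did not overlap, 2 of the in vivo arrays were not above background there, and the log2 fold change was 1.10 ± 0.33 (SE, limma adjusted p = 0.264). Its brighter probe set had 406, 181, 169 and 378 in vitro and 124, 125, 273 and 153 in vivo, with 0.69. STX5, the syntaxin of the Golgi, had 1015, 950, 825 and 676 in vitro and 703, 1084, 1243 and 939 in vivo, a log2 fold change of -0.18. STX4, a syntaxin of the plasma membrane, had 48.0, 12.3, 43.4 and 50.1 in vitro and 6.5, 46.2, 9.9 and 50.4 in vivo, above background on 3 in vitro and 2 in vivo arrays. STX16 of the trans-Golgi network had 0.36, 0.13 and 0.20, STX18 of the endoplasmic reticulum had -0.61, STX10 had -0.27, STX8 had 0.02, STX2 had -0.08 and STX11, of lytic granules, had 0.44. STX1A, the neuronal plasma membrane syntaxin, was too dim to be tested. SNAP47, the measured member of the SNAP25 family, had 415, 419, 433 and 396 in vitro and 406, 521, 455 and 436 in vivo, a log2 fold change of -0.12 with an interval of -0.51 to 0.26.

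STXBP3 encodes Munc18c, the partner of syntaxin 4 at the plasma membrane. A probe set of it (MmugDNA.1211.1.S1_x_at) had 346, 442, 315 and 281 in vitro, against 508, 555, 489 and 618 in vivo. The groups did not overlap, and the log2 fold change was -0.65 ± 0.20 (SE, limma adjusted p = 0.282). The other probe sets had -0.49 and -0.41, and their groups overlapped. The first of these has an identifier that shares its stem with the probe set above (MmugDNA.1211.1.S1), so they are not independent readings. STXBP6, or amisyn, a SNARE-like inhibitor of fusion, had -0.21 and -0.06. All 5 tested probe sets of this family, for 2 genes, were negative, beside 49.5 percent of all tested probe sets. Their median was -0.41, and none of the 5 passed. STXBP2 was too dim to be tested.

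Apart from SYT16, synaptotagmins were near background. Of 16 probe sets for 11 genes, 5 were tested, 1 lay above background on all 8 arrays and 5 on none. SYT16, an atypical member that does not bind calcium, had 271, 214, 321 and 284 in vitro and 292, 288, 226 and 473 in vivo, a log2 fold change of -0.19. SYT14 was at 38.6 ± 10.8 in vitro and 34.0 ± 11.4 in vivo (SD, n = 4 each). SYT12, SYT3 and SYT8 had -0.39, 0.39 and -0.58 at signals above background on 1 to 3 arrays of a group. SYT1, the calcium sensor of synaptic vesicles, had 50, 15, 18 and 22.6 in vitro and 16.5, 16.2, 46.8 and 17.5 in vivo at its brightest probe set. None of the 4 SYT1 probe sets was bright enough to be tested, nor were those of SYT4, SYT6, SYT9, SYT10 and SYT17.

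The exocyst tethers secretory vesicles to the plasma membrane. Of 15 tested probe sets of its subunits and their relatives, for 10 genes, 11 had a negative log2 fold change. The median was -0.25, and 49.5 percent of all tested probe sets were negative. EXOC1, EXOC3L2 and EXOC3L4 were positive, as was EXOC5 at its brightest probe set. None of the 15 passed. EXOC2, the SEC5 subunit bound by RAL GTPases, had 60.8, 45.5, 28.8 and 34.3 in vitro, against 141, 46.4, 77.2 and 62.2 in vivo. Only in vitro replicate 1 exceeded the lowest in vivo pool, and the log2 fold change was -0.77 ± 0.35 (SE, limma adjusted p = 0.471). The other tested EXOC2 probe set had -0.29. EXOC5, or SEC10, had 922, 727, 880 and 794 in vitro and 698, 783, 579 and 697 in vivo, a log2 fold change of 0.27 with an interval of -0.11 to 0.65, and its 2 dimmer tested probe sets had -0.18 and -0.25. EXOC1, or SEC3, had 473, 325, 369 and 390 in vitro and 458, 318, 471 and 197 in vivo, a log2 fold change of 0.17. EXOC3 had -0.42, EXOC4 had -0.30 and -0.55, EXOC6 had -0.21 and EXOC8 had -0.16. The relatives EXOC3L1, EXOC3L2 and EXOC3L4 had -0.44 and -0.50, 0.21, and 0.57.

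NAPA, the adaptor through which NSF takes SNARE complexes apart, had 99.2, 68.0, 75.8 and 47.4 in vitro and 42.1, 113, 90.8 and 89.4 in vivo. The ranges overlapped, with a log2 fold change of -0.16 (limma adjusted p = 0.903), and its other probe set had -0.23.

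**Figure D4:**
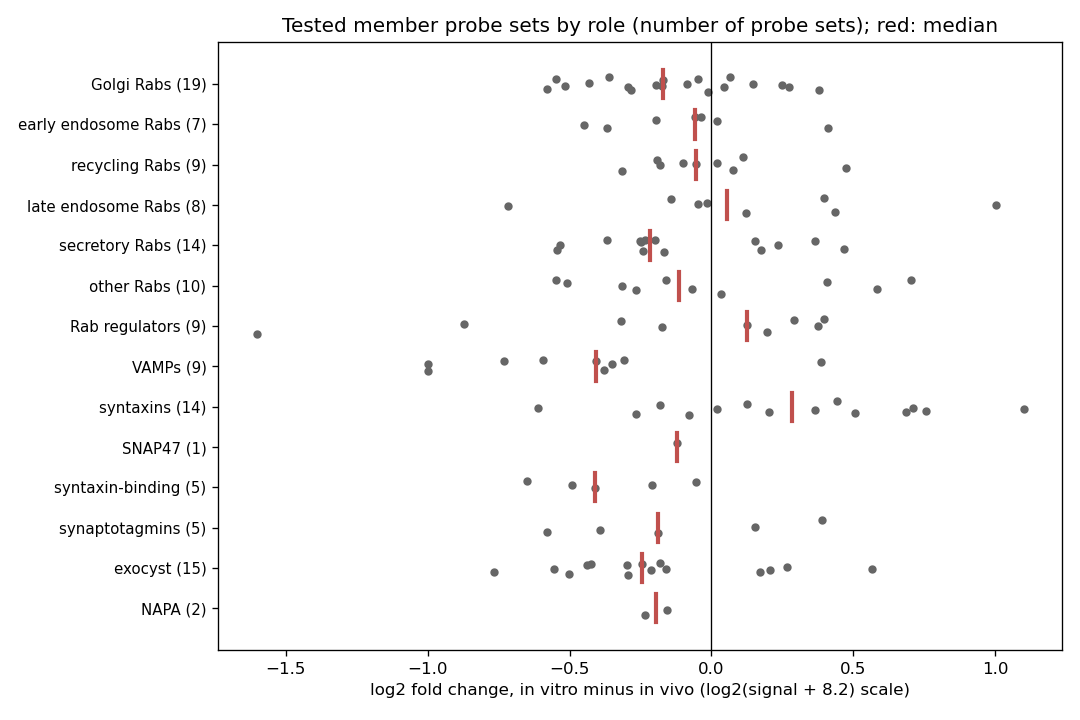
Log2 fold change, in vitro minus in vivo, of the 127 tested member probe sets by role, with the number of probe sets in brackets and the median in red. The medians run from -0.41 for VAMPs and syntaxin-binding proteins to 0.28 for syntaxins, and RAB3IP lies farthest from 0, at -1.60.

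Over all members, 80 of 127 tested probe sets had a negative log2 fold change and the median was -0.16, beside 49.5 percent negative and a median of 0.0042 over all tested probe sets. Counted once per gene, 44 of 74 were negative with a median of -0.094, beside 52.1 percent and -0.019 over named genes. The counts by mean signal, with limits set after the values were seen, were as follows. Of members with a mean signal over 500, 13 of 25 were positive, and the 5 with an unadjusted p under 0.05 were all higher in vitro (RAB20, STX3, VAMP7, RAB3GAP2 and RAB31). Of those between 100 and 500, 24 of 39 were negative, and all 7 with an unadjusted p under 0.05 were lower in vitro. Of those under 100, 44 of 63 were negative with a median of -0.18, and 2 with an unadjusted p under 0.05 were higher and 3 lower in vitro. The negative share under 100 was 69.8 percent of members and 49.8 percent of all tested probe sets. Between 100 and 500 it was 61.5 percent of members and 55.4 percent of all, and over 500 it was 48 percent of members and 39.8 percent of all. Of all tested probe sets with an unadjusted p under 0.05, 425 were higher and 268 lower in vitro over a mean signal of 500, and 382 were higher and 703 lower between 100 and 500.

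**Figure D5:**
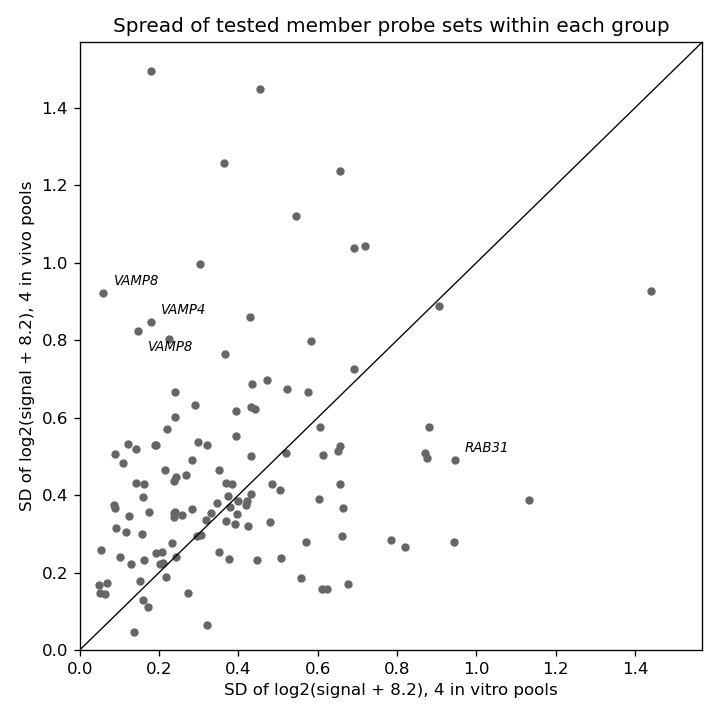
SD of log2(signal + 8.2) over the 4 in vitro pools (horizontal) and the 4 in vivo pools (vertical) for each tested member probe set, with the line of equal spread. Of 127 points, 78 lie above the line, and VAMP8, VAMP4 and RAB31 are named as members above background on all 8 arrays with an SD over 0.8 in a group.

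The members varied more among in vivo pools, as did the array as a whole. The median SD on the log2 scale was 0.35 in vitro and 0.40 in vivo for tested members, beside 0.32 in vitro and 0.44 in vivo for all tested probe sets. The SD was larger in vivo for 61.4 percent of tested members and 66.4 percent of all tested probe sets. Of the 92 members above background on all 8 arrays, 25 spanned more than 2-fold among in vitro pools and 32 among in vivo pools, and the median coefficient of variation was 19.2 percent in vitro and 26.3 percent in vivo. VAMP8 was among the most uneven of these, with a 1.09-fold range in vitro and a 4.07-fold range in vivo at its brighter probe set. RAB31 at a dimmer probe set ran the other way, with a 5.40-fold range in vitro and a 2.26-fold range in vivo.

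Genes of the same pathways that the rule does not cover also gave no call. Of 108 tested probe sets for 62 genes, 0 were called, and 9 (8.33 percent) had an unadjusted p under 0.05, 3 higher and 6 lower in vitro, with a median log2 fold change of -0.060. Of these 108, 65 (60.2 percent) had a negative log2 fold change, near the 63 percent of tested members. Among the other SNAREs, 0 of 27 tested probe sets passed. USE1, a SNARE of the endoplasmic reticulum, was at 38.4 ± 16.2 in vitro and 87.4 ± 35.5 in vivo (SD, n = 4 each; log2 fold change -1.03, limma adjusted p = 0.359) at its dimmest probe set, with -0.45 and -0.51 at the others. GOSR2, a Golgi SNARE, had 8 tested probe sets of both signs, from -0.29 to 0.34, with 0.10 at the brightest. Of 42 tested probe sets of Rab regulators, 0 passed, with -0.68 and 0.20 for the exchange factor DENND4C and 0.46, 0.24, -0.14 and -0.27 for the GAP TBC1D10A. Of 9 for Munc18-type proteins and tethers, 0 passed, and VPS54, of a tether at the Golgi, had 0.23, -0.40, -0.26 and 0.03. Of 30 for exocytosis regulators, 0 passed. SYTL5, a RAB27A effector, had 5475 ± 785 in vitro and 4131 ± 521 in vivo at its bright probe set with groups that did not overlap (log2 fold change 0.40, limma adjusted p = 0.405), and its other tested probe sets had 0.45, -1.06 and 0.34.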

How the data were processed

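Total RNA of pools of 4 oocytes was amplified in 2 rounds to biotinylated cRNA, per the labels' protocols. The deposited intensity values are linear signals of the MAS5 algorithm, as the submitters' processing notes name it, with no version stated. The 2% trimmed mean was 149 on every array, so the arrays share a global scale. MAS5 treats each probe set alone after background subtraction, which makes dim values vary.

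Of 52865 probe sets, 99 controls were left out of the tests. The background used 59 control probe sets. The test used log2(signal + 8.2). The pseudocount equals percentile 25 of the signals and understates changes of dim transcripts. The 26378 probe sets whose mean signal exceeded percentile 50 entered limma 3.58.1 (R 4.3.3; lmFit, eBayes with an intensity trend), with Benjamini-Hochberg adjustment at 0.05 over all of them. The fit was tested on simulated data. Gene symbols are the platform's. Of the 87 member genes, 86 kept their symbol in the RefSeq table of T2T-MMU8v2.0, and no coordinates or sequences were used. Named genes are, per direction, the 8 member genes of smallest unadjusted p, the 2 brightest genes of each of 14 role lists, genes fixed for their role in exocytosis and, of the outside lists, the gene of smallest p per direction. Other members are given to account for the whole set. The members and lists were chosen with earlier results of these data known. Alternatives changed the pseudocount, filter, normalization, trend or replicate block, or left out an array.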

Additional observations from a re-analysis of the deposited data

Results flagged for a closer look

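A pool stood apart from the other 3 of its group in 5 of the 92 groups of 4 looked at, by Dixon's test on log2 values at its 95 percent critical value. Chance gives about 1 in 20. STX4 in vitro had 12.3 in replicate 2 and 43.4 to 50.1 in the others. RAB32 in vitro had 54.6 in replicate 2 and 98.4 to 110 in the others, which widens its difference from the in vivo pools. DENND4C in vitro had 80.4 in replicate 2 and 129 to 142 in the others. RAB2A, at the probe set whose groups did not overlap, had 312 in in vivo replicate 2 and 182 to 196 in the other in vivo pools. SYT1 had 46.8 in in vivo replicate 3 and 16.2 to 17.5 in the others.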

How the results depend on the processing

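In 15 alternatives, 7 of method and 8 leaving out an array each, the count of members past the adjusted threshold was 0 in all but one. It was 1 (RAB3IP) without in vitro replicate 4, and over the arrays left out it ran from 0 to 1. The count of members at an unadjusted p under 0.05 was 17 as reported, or 13.4 percent beside 10.3 percent of all tested probe sets. It was 11 without the intensity trend (8.66 percent, beside 9.39 percent of all). With an array left out, where fewer arrays enter the fit, it ran from 9 to 22. The 9 came without in vitro replicate 4 (7.2 beside 8.41 percent). The 10 came without in vitro replicate 2 (7.94 beside 8.19 percent) or in vivo replicate 3 (8 beside 8.79 percent). The 11 came without in vitro replicate 1 (8.73 beside 7.47 percent) or in vivo replicate 2 (8.73 beside 10.2 percent). The 22 came without in vivo replicate 4 (17.6 beside 13.5 percent). The members' share thus lay above or below that of all tested probe sets, depending on the setting. The count over the whole array, 39 as reported, was 7 without the intensity trend and ran from 19 to 96 with an array left out. It was 19, 23 and 21 without in vitro replicates 1, 2 and 3, and 72 and 96 without in vivo replicates 1 and 4. The cause was not tested. The replicate number as a block gave 0 member calls and 44 calls in all. It gave 14 members at an unadjusted p under 0.05 (11 percent, beside 9.68 percent of all). However, deviations of same-numbered arrays correlated at -0.045 to 0.011, and 0 of 4 in vitro arrays correlated best with its own number. The labels do not say that numbers pair the arrays. The median log2 fold change of tested members stayed negative, from -0.19 with a pseudocount of 1 to -0.082 with probe sets above percentile 75 of mean signal. Of 663 refits of 45 named probe sets, 653 kept direction and side of the threshold, 1 (RAB3IP) passed and 9 turned sign, all at small values. The ranges of these log2 fold changes with an array left out were -0.086 (without in vivo replicate 4) to 0.32 for EXOC1, -0.42 to 0.011 (in vitro replicate 4, with 9.1e-05 without in vivo replicate 2) for NAPA, -0.13 to 0.014 (in vitro replicate 3) for RAB5C, -0.099 to 0.0048 (in vitro replicate 2) for RAB6A, -0.10 to 0.080 (in vitro replicate 2, with 0.05 and 0.05 without in vivo replicates 2 and 3) for RAB7A, and -0.33 to 0.016 (in vivo replicate 4) for SYT16. Signals near background limit what can be said of the 40 untested members.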
